A study of Mus musculus with 12 samples.

Results

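The genes described here carry glucose to lactate and report the oxygen supply of a cell. They were chosen as a list of 42 symbols in 7 roles: 2 glucose transporters, 17 glycolytic enzymes, 3 glycolytic regulators, 2 lactate transporters, 3 subunits of hypoxia-inducible factor (HIF), 5 oxygen sensors and 10 HIF targets. Of the 42, 40 were rows of the deposited table of 18467 genes, and 36 had enough counts to be tested. The levels of Aldoc and Ankrd37 were not analysed here, and only their promoters were. Eno2, Epas1, Adm and P4ha2 were in the table but below the filter on low counts. Of the glycolytic enzymes, 16 were in the table and 15 were tested, and of the HIF targets 9 were in the table and 7 were tested.

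RNA was sequenced from 2 kinds of macrophage sorted from femur and tibia marrow, with 3 libraries from different mice in each of 4 groups. The metastatic groups came from female Albino B6 mice injected at 8 weeks of age, through the caudal artery, with E0771, a mouse breast cancer cell line, and the normal groups came from healthy control mice whose age, sex and strain were not given separately. General macrophages were sorted as CD11b+F4/80+, antigens that many myeloid cells carry, and niche macrophages as VCAM1+CD163+CCR3+. Since the titles use the words general macrophages for either sort, a library was placed by the antigens it was sorted on. The libraries of niche macrophages from normal marrow are called A, B and C, because their column numbers differ from the numbers in the titles.

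Library totals were between 13687957 and 30332442 counts. Levels are given in CPM, the count of a gene relative to the scaled library total, after scaling by trimmed mean of M values (TMM), and 3 counts corresponded to between 0.11 and 0.244 CPM. Transcripts of the niche antigens followed the sort: Vcam1 was between 938 and 2248 CPM in the 6 niche libraries and between 47.6 and 92.5 CPM in the 6 general libraries. Both sorts held transcripts of other marrow cells. Summed over the 15 listed neutrophil markers, the level was between 24280 and 25690 CPM in general macrophages from normal marrow and between 12360 and 15460 CPM in niche macrophages of normal marrow. The 17 erythroid markers in the table summed to between 91.1 and 281 CPM in the former and between 1020 and 1621 CPM in the latter. The 13 macrophage markers in the table summed to 209 to 287 CPM in general and 3133 to 3878 CPM in niche macrophages of normal marrow. In such bulk libraries, fewer cells of a type and less RNA per cell cannot be told apart.

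As background, glycolysis splits glucose into pyruvate in the cytosol. Pyruvate then either enters the mitochondria, a step that pyruvate dehydrogenase kinases such as Pdk1 restrain, or becomes lactate, which leaves the cell through monocarboxylate transporters. The pathway is tied to oxygen through HIF: with oxygen present, prolyl hydroxylases (the Egln genes) mark the HIF alpha subunits for removal through Vhl, and with little oxygen the alpha subunit pairs with Arnt and binds promoters at a short core, ACGTG or GCGTG. Many glycolytic genes are textbook HIF targets, and marrow is a tissue of low oxygen. Protein stability, by which HIF is mainly controlled, is not visible in RNA.

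Between the populations in normal marrow, 3 of the 36 tested genes passed an adjusted p of 0.05 in edgeR's quasi-likelihood test: Gpi1 and Bnip3l were lower and Slc16a1 was higher in niche macrophages. Over all 12882 tested genes, 2.47% passed in that comparison, 1.50% as higher and 0.970% as lower. None of the 36 passed in the other comparisons: between populations in metastatic marrow (0.831% of all genes passed), between metastatic and normal marrow in general macrophages (0.0155%) or in niche macrophages (0.00776%), or for the interaction of population and metastasis, where no gene of the table passed. In normal marrow DESeq2 passed 6 of the 36 (16.7%) between populations, beside 14.2% of all genes, and limma-voom passed 1, beside 1.44%. In the other 4 comparisons, in the order above, DESeq2 passed 0, 0, 1 (Egln3 with metastasis in niche macrophages) and 0 of the 36, beside 3.73%, 1.09%, 7.41% and 3.18% of all genes. There limma-voom passed 0, beside 1.38%, 0.179%, 0.0854% and 0%. At an unadjusted p under 0.05 in edgeR, the numbers of the 36 in all 5 comparisons, normal marrow first, were 7, 1, 2, 3 and 2. For all genes that share was 19.0%, 8.60%, 5.12%, 12.7% and 7.89% in the same order.

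**Figure D1:**
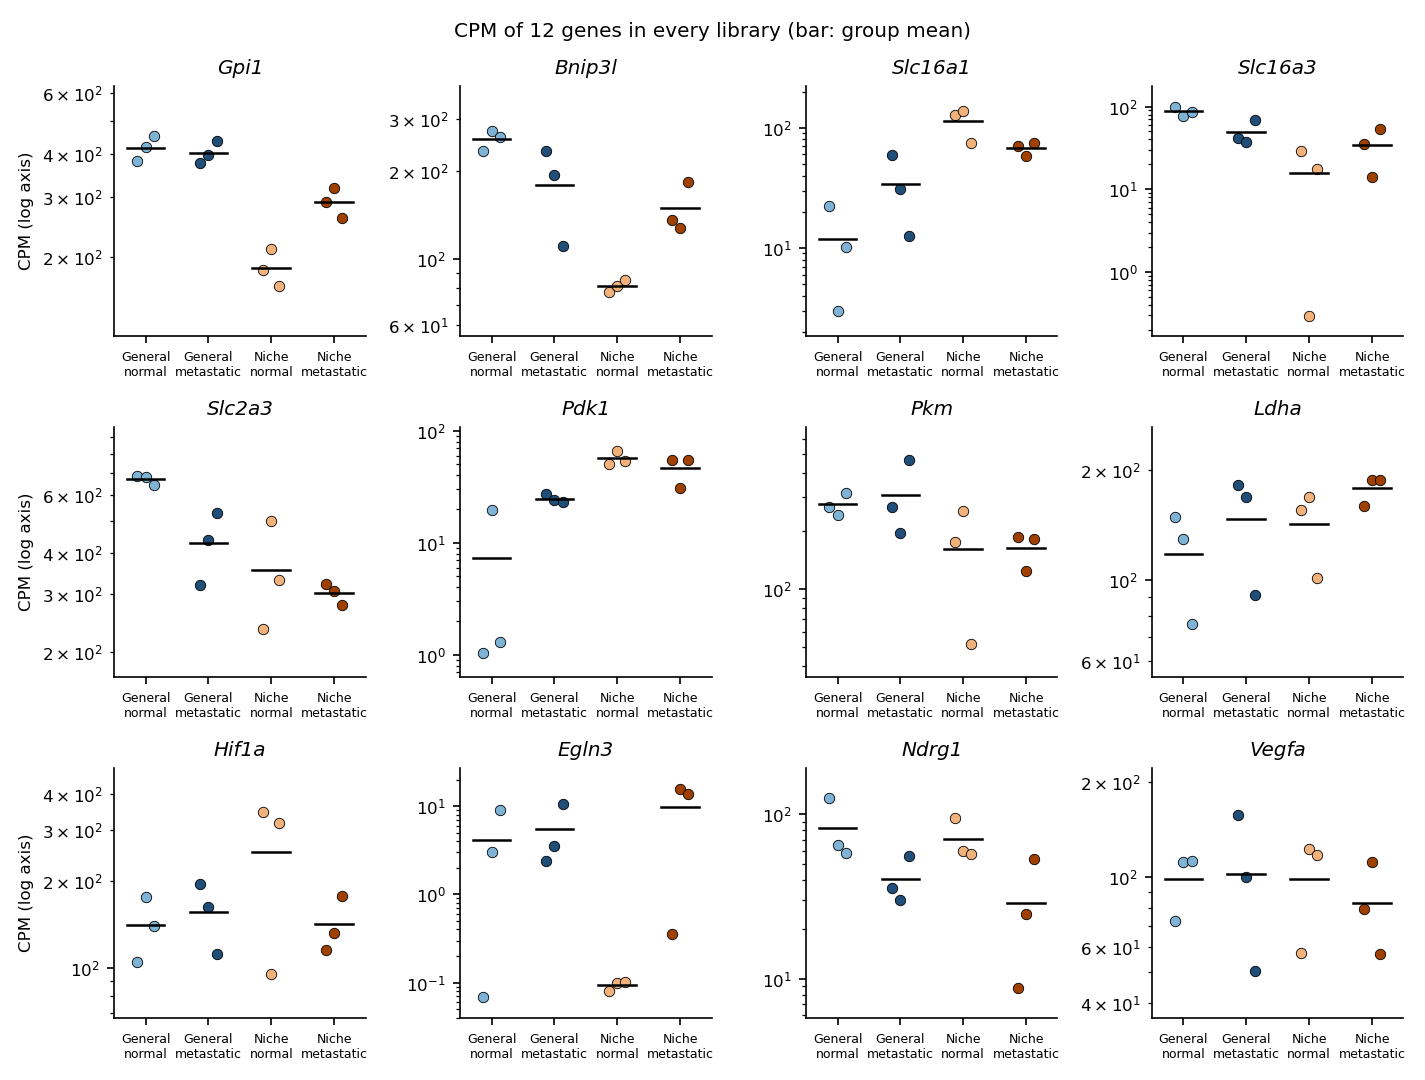
CPM on log axes in each of the 12 libraries for 12 genes, in 4 groups of 3 points; the bar is the group mean. Gpi1 and Bnip3l lie lowest in niche macrophages from normal marrow, at 165 to 211 and 77.7 to 85.0 CPM, where the mean of Slc16a1 is highest; its 3 libraries there, at 74.6 to 138 CPM, overlap those of niche macrophages from metastatic marrow, at 58.6 to 75.4 CPM.

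Glucose enters through the facilitative transporters Slc2a1 and Slc2a3, of which the second has a high affinity for glucose. Per kilobase of exon, Slc2a3 averaged 111 CPM and Slc2a1 16.6 CPM over the 12 libraries. Slc2a3 was at 685, 680.2 and 643 CPM in general macrophages from normal marrow, and at 318, 438 and 529 CPM in those from metastatic marrow. The niche libraries had 235, 498 and 331 CPM in normal and 321, 305 and 277 CPM in metastatic marrow. Every general library from normal marrow was above every other library. The log2 fold change of niche over general macrophages in normal marrow was -0.92 ± 0.27 (SE), with an adjusted p of 0.0937, and that of metastatic over normal marrow in general macrophages was -0.64 ± 0.27 (SE), with an adjusted p of 0.94. These comparisons share the general libraries from normal marrow. For the first comparison, leaving out 1 library in turn gave between -1.24 without niche library B, which passed with an adjusted p of 0.0228, and -0.68 without niche library A, with an adjusted p of 0.27. None of the other 4 such fits passed. With all libraries it passed in DESeq2, with an adjusted p of 0.00881, and with a filter of 10 counts in every library (0.0289).

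Slc2a1 was at 56.7, 23.0 and 64.9 CPM in general macrophages from normal marrow and at 73.6, 76.3 and 67.0 CPM in those from metastatic marrow. In niche macrophages it was at 0.974, 66.5 and 24.1 CPM in normal marrow and at 87.6, 33.3 and 76.4 CPM in metastatic marrow. The niche values overlap the general ones, and within niche macrophages from normal marrow the gene was nearly absent from library A and well detected in B. No difference passed the test.

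Among the glycolytic enzymes, Gpi1, which converts glucose 6-phosphate to fructose 6-phosphate, changed between populations. Its level was 382, 418 and 449.6 CPM in general macrophages from normal marrow and 377, 396 and 437 CPM in those from metastatic marrow. Niche macrophages had 183, 211 and 165 CPM in normal marrow and 289, 318 and 261 CPM in metastatic marrow. All niche libraries lay below all general libraries, and the niche libraries from metastatic marrow lay above those from normal marrow. In normal marrow the log2 fold change of niche over general was -1.16 ± 0.24 (SE), a 2.23-fold lower level, with an adjusted p of 0.0107. Without replicate 3 of the general macrophages from normal marrow it was -1.09, with an adjusted p of 0.0618. In metastatic marrow the log2 fold change was -0.48 ± 0.24 (SE), with an adjusted p of 0.60, and the interaction, the metastasis effect in niche minus that in general macrophages, was 0.68 ± 0.33 (SE), with an adjusted p of 0.63. Gpi1 lies on the minus strand at chr7:34201330-34230336 (GRCm38). Of its 50-base stretches, 18.6% also occur in transcripts of other genes.

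The sum of the neutrophil markers, given above, was lower in the same niche libraries in which Gpi1 was lower, and 6 of the 15 neutrophil markers passed as lower in niche macrophages from normal marrow, such as S100a8 with a log2 fold change of -1.21. Not every marker was lower: Mpo, Elane and Ctsg, genes of neutrophil granules, were above 0, at 0.61, 0.47 and 1.21, and did not pass (adjusted p of 0.26, 0.47 and 0.74). The 10 monocyte markers summed to between 12110 and 13080 CPM in general and to between 4538 and 5793 CPM in niche macrophages of normal marrow, and 5 of them passed as lower, while Treml4 was above 0, at 2.41, and did not pass (adjusted p of 0.54). None of these 25 markers was at 0 in all libraries of a group. Their part in the result for Gpi1 was not tested.

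Pkm, the pyruvate kinase of most tissues, had the only unadjusted p under 0.05 of the 36 in metastatic marrow. Its level was 265, 194 and 463 CPM in general and 185, 124 and 182 CPM in niche macrophages there, with no overlap, a log2 fold change of -0.91 ± 0.43 (SE) and an adjusted p of 0.58. In normal marrow Pkm was at 267, 242 and 314 CPM in general and at 175, 254 and 51.8 CPM in niche macrophages, and the groups overlapped. Of its 50-base stretches, 23.7% are shared with other genes.

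Hexokinases trap glucose by phosphorylation. Hk2, the inducible form, ranged from 61.1 to 217 CPM in general and from 26.0 to 176 CPM in niche macrophages. Its values were 61.1, 217 and 113 CPM in general macrophages from normal marrow and 106, 71.3 and 166 CPM in those from metastatic marrow. In niche macrophages Hk2 was at 84.8, 137 and 26.0 CPM in normal and at 176, 92.4 and 58.3 CPM in metastatic marrow. Each of these groups overlaps each other one. Hk3, the form typical of myeloid cells, was at 163, 172 and 144 CPM in general macrophages from normal marrow and at 136, 53.2 and 156 CPM in those from metastatic marrow. Niche macrophages had 79.0, 88.6 and 183 CPM of Hk3 in normal and 179.5, 93.2 and 109 CPM in metastatic marrow, again overlapping. Per kilobase of exon Hk3 averaged 38.7 CPM over the 12 libraries, Hk2 19.4 CPM and Hk1 6.82 CPM.

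Gapdh, which oxidises glyceraldehyde 3-phosphate, had nearly equal group means. It was at 144, 73.0 and 63.6 CPM in general macrophages from normal marrow and at 63.0, 95.5 and 126 CPM in those from metastatic marrow. In niche macrophages it was at 106, 94.8 and 72.2 CPM in normal and at 121, 92.0 and 68.8 CPM in metastatic marrow. The log2 fold changes of the 4 comparisons between groups were between -0.04 and 0.05, each with an SE of 0.45. Of the 50-base stretches of Gapdh, 58.4% also occur in other genes, 218 in number.

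Ldha, which turns pyruvate into lactate, did not separate the groups either. Its level was 149, 130.0 and 75.7 CPM in general macrophages from normal marrow and 183, 169 and 91.0 CPM in those from metastatic marrow. Niche macrophages had 156, 169 and 102 CPM in normal and 159.5, 188 and 188 CPM in metastatic marrow. Its log2 fold changes lay between 0.27 and 0.33, each with an SE of 0.37, so that none exceeded its standard error.

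The other tested enzymes were Hk1, Pfkl, Pfkp, Pfkm, Aldoa, Tpi1, Pgk1, Pgam1 and Eno1, and none passed in any comparison in edgeR's test. Aldoa, an aldolase, was the most even of them, between 138 and 366 CPM over all libraries. Tpi1, the triose phosphate isomerase, was lower in every niche library than in every general library of normal marrow, at 44.1, 66.5 and 52.8 CPM against 124, 80.1 and 74.8 CPM, with a log2 fold change of -0.77 ± 0.45 (SE) and an adjusted p of 0.35. Pfkm, the muscle form of phosphofructokinase, was at 1 to 2 counts in general macrophages from normal marrow, and in niche macrophages from normal marrow its 32.5 CPM came from library C alone. DESeq2 called Pfkm as higher in niche macrophages there, with a log2 fold change of 7.08 that is not a bound and an adjusted p of 0.0329. Eno2, the neuronal enolase, stayed at or below 0.131 CPM throughout.

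The regulators act on the flux through the pathway. Pfkfb3 and Pfkfb4 set the level of fructose 2,6-bisphosphate, the main activator of phosphofructokinase. Pfkfb3 was at 71.0, 38.9 and 54.4 CPM in general macrophages from normal marrow, at 94.8, 78.0 and 73.1 CPM in those from metastatic marrow, at 38.4, 91.7 and 177 CPM in niche macrophages of normal marrow and at 115, 119.8 and 79.8 CPM in those from metastatic marrow. Only its general libraries separated by marrow, and that difference had a log2 fold change of 0.58 ± 0.51 (SE). Pfkfb4 was at 116, 207 and 103 CPM in general and at 19.6, 65.8 and 98.6 CPM in niche macrophages of normal marrow, with no overlap. Its log2 fold change was -1.21 ± 0.53 (SE), with an adjusted p of 0.24. In metastatic marrow Pfkfb4 was at 57.8, 104 and 72.1 CPM in general and at 97.8, 106 and 57.6 CPM in niche macrophages, so that the groups overlapped there.

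Pdk1, which holds pyruvate back from the mitochondria, was at 1.03, 19.6 and 1.30 CPM in general macrophages from normal marrow and at 27.4, 24.0 and 22.9 CPM in those from metastatic marrow. In niche macrophages it was at 50.5, 65.8 and 53.4 CPM in normal and at 55.3, 30.9 and 54.4 CPM in metastatic marrow. Every niche library was above every general library. In normal marrow the log2 fold change was 2.95 ± 1.08 (SE), a 7.72-fold higher level with an adjusted p of 0.19, and it did not pass. One library decides this value: without replicate 2 of the general macrophages it was 5.60, with an adjusted p of 0.0206. In metastatic marrow the log2 fold change was 0.92 ± 1.01 (SE), with an adjusted p of 1.

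Lactate leaves or enters cells through Slc16a1 (MCT1) and Slc16a3 (MCT4), the second of which is a low-affinity exporter found in strongly glycolytic cells. Slc16a1 was at 22.2, 2.97 and 10.2 CPM in general macrophages from normal marrow and at 58.9, 30.9 and 12.6 CPM in those from metastatic marrow. Niche macrophages had 127, 138 and 74.6 CPM in normal and 70.1, 58.6 and 75.4 CPM in metastatic marrow. In normal marrow the groups stood apart, and in metastatic marrow the lowest niche library, at 58.6 CPM, fell just below the highest general library, at 58.9 CPM. Niche over general macrophages in normal marrow had a log2 fold change of 3.26 ± 0.78 (SE), a 9.61-fold higher level, with an adjusted p of 0.0287. The call did not pass without replicate 2 (adjusted p of 0.112) or replicate 3 (0.119) of the general macrophages from normal marrow, or without niche library B (0.058), nor in limma-voom (0.138) or with only the 6 libraries compared (0.109). Leaving out 1 library in turn gave log2 fold changes between 2.81 and 4.11, the highest without replicate 1 of the general macrophages (adjusted p of 0.0244). In metastatic marrow the log2 fold change was 1.00 ± 0.72 (SE), with an adjusted p of 0.93. The interaction was -2.27 (SE 1.02), with an adjusted p of 0.62. It was -3.12 without replicate 1 of the general macrophages from normal marrow and -1.63 without replicate 1 of those from metastatic marrow, with adjusted p-values of 0.57 and 0.82.

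Slc16a3 had the opposite order in normal marrow. It was at 99.3, 77.0 and 86.3 CPM in general macrophages and at 28.9, 0.298 and 17.6 CPM in niche macrophages there, with no overlap. This gave a log2 fold change of -2.49 ± 1.00 (SE), a 5.62-fold lower level with an adjusted p of 0.22, and it did not pass. The size of the difference was uncertain. Leaving out 1 library in turn gave log2 fold changes between -3.28, without niche library A (adjusted p of 0.17), and -1.91. In limma-voom the log2 fold change was -4.30 (adjusted p of 0.27). In metastatic marrow the gene was at 41.8, 37.5 and 68.1 CPM in general and at 34.8, 14.0 and 53.7 CPM in niche macrophages, which overlapped.

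The balance of both transporters can be read within each library, per kilobase of exon. Slc16a1 made up 18.3%, 3.73% and 10.6% of their summed level in general macrophages from normal marrow and 58.6%, 45.3% and 15.7% in those from metastatic marrow. In niche macrophages the share was 81.5%, 99.8% and 81.0% in normal and 66.9%, 80.8% and 58.5% in metastatic marrow. Each general library had a lower share than each niche library except replicate 1 from metastatic marrow, whose 58.6% lay just above the lowest niche value of 58.5%. The share was highest in the niche libraries of normal marrow. These shares describe the ratio of a called and an uncalled gene and carry no test of their own. The summed level of the erythroid markers was higher in every niche library, as was Slc16a1 in normal marrow. Of the 15 tested ones, 12 had a log2 fold change above 0 in normal marrow and 4 passed as higher, with Hbb-bs, a beta globin, at 53.9, 28.2 and 11.1 CPM in the general and at 454, 627 and 366 CPM in the niche libraries. Hba-a1, Alas2 and Sptb were below 0, at -3.69, -1.62 and -0.71, and did not pass. The 10 tested B and plasma cell markers also included 4 that passed as higher, and of the 12 macrophage markers 8 passed as higher. In the general libraries from normal marrow 1 erythroid marker, 1 macrophage marker and 1 B and plasma cell marker were at 0 in all 3 libraries, and in the niche libraries 1 macrophage marker was. The part of these cells in the level of Slc16a1 was not tested.

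**Figure D2:**
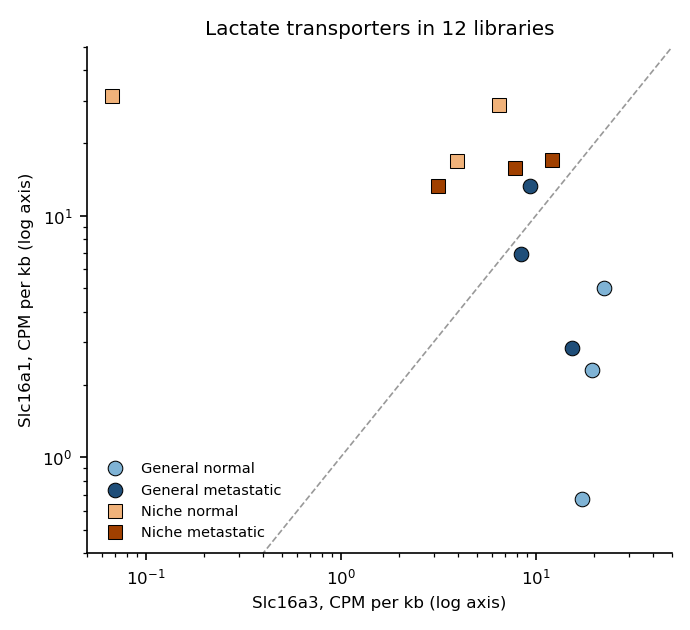
Slc16a1 against Slc16a3 in CPM per kilobase of exon in each of the 12 libraries, both on log axes; circles are general and squares niche macrophages, and the dashed line marks equal levels. All 6 niche libraries lie above the line, where Slc16a1 is more than 58% of the sum, and the 3 general libraries from normal marrow lie below it, at 3.73% to 18.3%.

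Promoter sequence was examined for the HIF core, ACGTG or GCGTG on either strand, in the 250 bases before each RefSeq start (GRCm38.p6). A palindromic CACGTG counts once on each strand. Of the listed genes, 38 had a promoter entry, and 33 of those (86.8%) held at least 1 core in at least 1 promoter, as did 58.6% of the genes of the count table and 41.5% of all genes with an entry. By promoter, the shares were 75.4% of 57, 52.8% and 38.6%. Among the enzymes 14 of 17 genes held a core and among the HIF targets 8 of 8. Bnip3l, Slc2a3, Ndrg1 and Epas1 had no entry. The letters are not in the window of Gpi1, which changed between populations, nor in those of Tpi1, Eno2, Vhl and Hif1an. A match is a description of letters and not a bound site.

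The stretches around the cores are shown for both lactate transporters, whose levels ran in opposite directions in normal marrow, for Pdk1, and for Ldha and Bnip3, 2 textbook HIF targets whose levels did not separate the groups. For each gene the promoter with the most matches is shown; a second promoter of Ldha holds 1 match and a second of Pdk1 none. Each stretch runs 5′ to 3′ on the strand of its gene, and capitals mark the cores and their complements. They come from chr3:104638449-104638549 on the plus strand, chr11:120949025-120949066 on the plus strand, chr2:71873131-71873165 on the plus strand, chr7:46845644-46845789 on the plus strand and chr7:138909522-138909638 on the minus strand, in this order. None overlaps an annotated exon, and those of Slc16a3 and Ldha lie within the annotated gene body, in an intron.
Slc16a1: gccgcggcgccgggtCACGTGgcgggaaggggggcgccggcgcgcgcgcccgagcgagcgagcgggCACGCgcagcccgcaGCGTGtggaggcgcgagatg
Slc16a3: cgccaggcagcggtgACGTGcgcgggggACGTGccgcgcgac
Pdk1: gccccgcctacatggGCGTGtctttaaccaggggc
Ldha: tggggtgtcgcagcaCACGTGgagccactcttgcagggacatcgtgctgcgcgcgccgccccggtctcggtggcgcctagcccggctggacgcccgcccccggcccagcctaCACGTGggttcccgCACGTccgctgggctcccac
Bnip3: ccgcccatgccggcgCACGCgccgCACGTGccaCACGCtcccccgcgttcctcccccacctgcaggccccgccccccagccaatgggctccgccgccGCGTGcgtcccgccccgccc
Slc16a1 and Slc16a3 both hold cores, 4 matches in the first and 2 in the second, so the presence of these letters does not separate the transporter that was higher from the one that was lower in niche macrophages. The stretches shown for Ldha and Bnip3 hold 5 matches each, the most of this set.

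**Figure D3:**
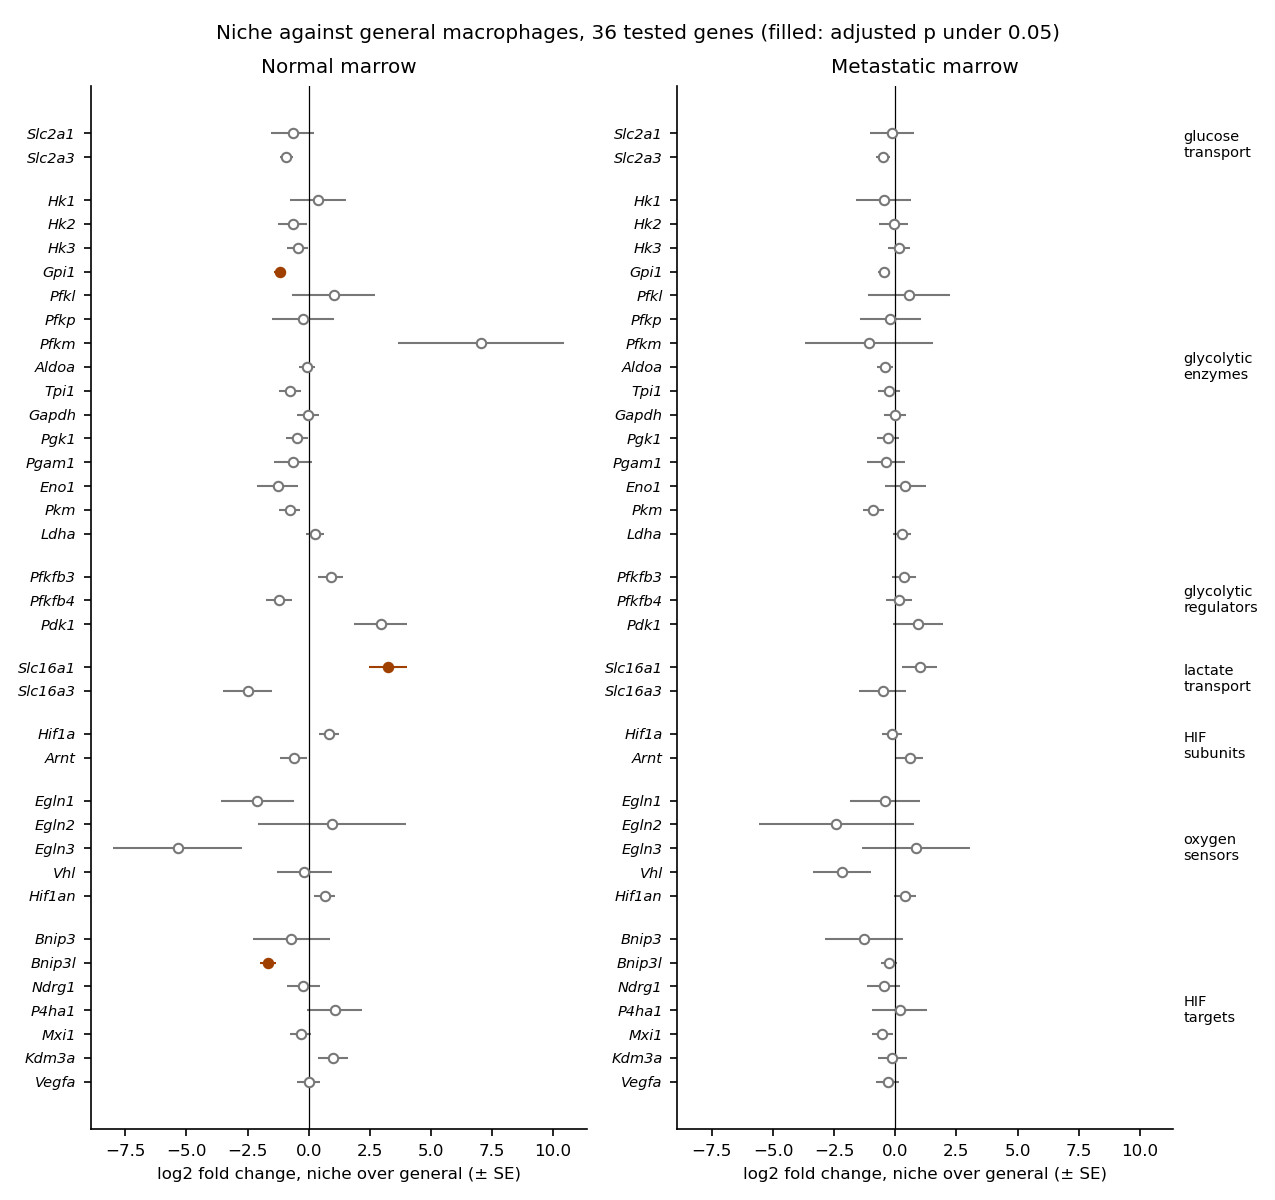
Log2 fold change of niche over general macrophages (± SE) for the 36 tested genes, ordered by role, in normal marrow (left) and metastatic marrow (right); filled points have an adjusted p under 0.05. The 3 filled points are Gpi1 (-1.16), Slc16a1 (3.26) and Bnip3l (-1.66), all in normal marrow, and the widest bars belong to genes with few counts such as Pfkm and Egln3.

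The HIF alpha subunit of these libraries was Hif1a. It was at 105, 176 and 140.0 CPM in general macrophages from normal marrow and at 195, 163 and 112 CPM in those from metastatic marrow. In niche macrophages it was at 346, 95.1 and 317 CPM in normal and at 115, 132 and 177 CPM in metastatic marrow. Niche libraries A and C from normal marrow were the highest of the 12 and library B was the lowest, so that the group spans the values of all others. The log2 fold change of niche over general in normal marrow was 0.85 ± 0.41 (SE), with an adjusted p of 0.27. Epas1, the alpha subunit HIF-2, was at 13.1, 0.0593 and 0 CPM in general macrophages from normal marrow, at 0.0365, 0 and 1.32 CPM in those from metastatic marrow, at 0, 0 and 0.0502 CPM in niche macrophages of normal marrow, and at 0.0505, 0.175 and 0 CPM in those from metastatic marrow. It exceeded the level of 3 counts in 3 of the 12 libraries. Arnt, the shared partner, was at 74.7, 96.5 and 82.6 CPM in general macrophages from normal marrow, above the 49.8, 31.4 and 62.6 CPM of those from metastatic marrow and the 48.9, 54.4 and 62.6 CPM of niche macrophages from normal marrow. Niche macrophages from metastatic marrow had 67.8, 118 and 30.9 CPM of Arnt. Neither separation passed, with adjusted p-values of 1 and 0.63.

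Among the oxygen sensors, the prolyl hydroxylase Egln3, itself a textbook HIF target, had the largest difference with metastasis. It was at 0.0811, 0.0994 and 0.1 CPM in niche macrophages of normal marrow, which is 1, 2 and 2 counts, and at 0.353, 15.6 and 13.7 CPM in those from metastatic marrow, which is 7, 356 and 371 counts. General macrophages had 0.0687, 3.03 and 9.19 CPM in normal and 2.41, 3.52 and 10.5 CPM in metastatic marrow. The niche groups did not overlap, although replicate 1 from metastatic marrow stayed near the level of the normal libraries. The fitted log2 fold change of 6.63 ± 2.80 (SE), with an adjusted p of 0.38, rests on a group with 1 to 2 counts per library and is not a bound. DESeq2 called it, at 6.70 with an adjusted p of 0.0103, and also called it as lower in niche than in general macrophages of normal marrow, with an adjusted p of 0.0323.

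Egln1, the main prolyl hydroxylase of most tissues, was at 34.0, 51.3 and 15.7 CPM in general macrophages from normal marrow and at 33.3, 15.3 and 52.5 CPM in those from metastatic marrow. Niche libraries had 0.649, 0.447 and 22.3 CPM in normal and 0.656, 48.6 and 25.9 CPM in metastatic marrow. In niche macrophages, 3 of the 6 libraries were thus under 1 CPM, and in general macrophages none. The log2 fold change in normal marrow, -2.11 ± 1.49 (SE), had an adjusted p of 0.47. Vhl, the ubiquitin ligase subunit that recognises hydroxylated HIF, was at 15, 62.8 and 34.4 CPM in general macrophages from normal marrow, at 60.5, 60.4 and 41.2 CPM in those from metastatic marrow, at 25.8, 73.3 and 0.351 CPM in niche macrophages of normal marrow and at 8.03, 9.66 and 17.8 CPM in those from metastatic marrow. In metastatic marrow all niche libraries were below all general ones, with a log2 fold change of -2.19 ± 1.18 (SE) and an adjusted p of 0.66. Hif1an, which hydroxylates HIF at another residue, ranged from 42.6 to 142 CPM, and Egln2 from 0 to 23.6 CPM with 8 of its 12 libraries under 0.1 CPM.

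Bnip3l, a mitophagy receptor that also clears mitochondria from maturing red cells, was the HIF target that changed. It was at 234, 274 and 261 CPM in general macrophages from normal marrow and at 233, 194 and 111 CPM in those from metastatic marrow. Niche macrophages had 77.7, 81.1 and 85.0 CPM in normal and 136, 127 and 184 CPM in metastatic marrow. The niche libraries from normal marrow were lower than all other libraries and had the narrowest spread of the 4 groups. The log2 fold change of niche over general in normal marrow was -1.66 ± 0.34 (SE), a 3.15-fold lower level, with an adjusted p of 0.00917. It passed when any one of the 6 libraries was left out, with adjusted p-values between 0.0221 and 0.0473, and did not pass in limma-voom, with an adjusted p of 0.151. Metastatic over normal marrow gave 0.87 ± 0.33 (SE) in niche macrophages, with an adjusted p of 0.38, and -0.52 ± 0.33 (SE) in general macrophages, with an adjusted p of 1. The difference between these effects was 1.39 ± 0.46 (SE), the smallest p of the 36 genes for that contrast, and its adjusted p of 0.46 did not pass. Bnip3l lies on the minus strand at chr14:66985239-67008877 (GRCm38). Of its 50-base stretches 24.4% are shared with 1 other gene, Bnip3l-ps, and reads from the pair may have been split in counting. The erythroid marker sum was higher in the niche libraries and ran opposite to Bnip3l, while the neutrophil and monocyte marker sums were lower along with it. Their part in the result was not tested.

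The related Bnip3 was at 13.5, 39.2 and 19.4 CPM in general macrophages from normal marrow and at 52.7, 33.0 and 17.9 CPM in those from metastatic marrow. Niche macrophages had 0, 18.4 and 25.6 CPM in normal and 0.253, 25.6 and 17.1 CPM in metastatic marrow. In each niche group 1 library was close to 0, and the others lay among the general values. Ndrg1, a stress-induced gene used widely as a hypoxia marker, was at 126, 65.1 and 58.5 CPM in general and at 95.3, 60.0 and 57.5 CPM in niche macrophages of normal marrow. From metastatic marrow it was at 35.4, 30.0 and 55.6 CPM in general and at 8.74, 24.6 and 53.1 CPM in niche macrophages. In both populations all libraries from metastatic marrow were below all those from normal marrow, with log2 fold changes of -1.04 ± 0.68 and -1.30 ± 0.68 (SE) and adjusted p-values of 1 and 0.42. The nearest libraries lay close, at 55.6 against 58.5 CPM in general and 53.1 against 57.5 CPM in niche macrophages. Ndrg1 was the only one of the 36 tested genes with this separation in both populations, in 1 direction. Of all tested genes, 5.64% were lower without overlap in general and 7.11% in niche macrophages. The share with this separation in both was not counted.

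Vegfa, the angiogenic factor that is among the best known HIF targets, was at 72.5, 112 and 112 CPM in general macrophages from normal marrow and at 157, 99.8 and 50.5 CPM in those from metastatic marrow. Niche macrophages had 57.4, 122 and 117 CPM in normal and 79.2, 111 and 57.1 CPM in metastatic marrow. Its log2 fold changes between groups lay between -0.31 and 0.05, with an SE of 0.48, and all groups overlapped. The remaining tested targets did not pass either: the transcriptional repressor Mxi1 ranged from 71.7 to 196 CPM, the histone demethylase Kdm3a from 29.4 to 165 CPM, and P4ha1, a subunit of collagen prolyl hydroxylase, from 5.51 to 46.6 CPM. Adm and P4ha2 stayed at or below 0.151 and 0.0811 CPM.

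The enzymes and the HIF targets were then set beside each other. In normal marrow the median log2 fold change of niche over general was -0.45 for the 15 enzymes, of which 4 were above 0 and 11 below, and -0.23 for the 7 HIF targets, of which 3 were above and 4 below. The median of all tested genes was 0.19, with 7215 above 0 and 5641 below. It was 0.0581, 0.0038 and 0 without niche library A, B or C. Those 3 fits, filtered anew, tested 14250, 14200 and 14222 genes in place of 12882. With limma-voom, in which no class median was taken, the median of all genes was -0.20. Leaving out 1 library moved the enzyme median to between -0.55 and -0.24, and it was -0.24 without general replicate 2, -0.26 without niche library A and -0.27 without niche library C. The HIF target median moved to between -0.17 and -0.054, closest to 0 without general replicate 3, and was 0.0066 with no filter on low counts. In each class 1 gene passed, as lower. In metastatic marrow the medians were -0.26 for the enzymes and -0.31 for the HIF targets against 0.04 for all genes, with 11 of 15 and 6 of 7 below 0. Over all tested genes 6672 were above 0 and 6204 below, and their median with limma-voom was -0.15. The enzyme median turned to 0.074 without niche replicate 3, and the HIF target median was -0.097 without general replicate 1. No p is given for these medians because the genes were chosen with earlier results of these data known.

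With metastasis the classes moved little in general macrophages, with medians of 0.02 for the enzymes, 0.01 for the HIF targets and -0.01 for all genes. The enzyme median was -0.23 without general replicate 3 from metastatic marrow, and the HIF target median was below 0 whichever library was left out. In niche macrophages the median was 0.10 for the enzymes, with 10 of 15 above 0, and -0.26 for the HIF targets, with 6 of 7 below 0, against -0.17 for all genes. Over all tested genes 5609 were above 0 and 7245 below. Their median was -0.059, -0.010 and 0 without niche library A, B or C, and between -0.22 and -0.19 without a niche replicate from metastatic marrow. It was 0.064 with library totals and 0.17 with limma-voom. The exception among the targets was Bnip3l, at 0.87. The enzyme median turned to -0.14 without niche replicate 1 from metastatic marrow, and leaving out 1 library moved the HIF target median to between -0.63 and -0.13.

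Within each library the levels of both classes were summed. The 15 enzymes summed to between 1957 and 2138 CPM in general macrophages from normal marrow, to between 1761 and 2463 CPM in those from metastatic marrow, to between 1283 and 1711 CPM in niche macrophages of normal marrow and to between 1454 and 1920 CPM in those from metastatic marrow. The 7 HIF targets summed to between 663.8 and 694 CPM, 477 and 631 CPM, 358 and 597 CPM, and 422 and 457 CPM in the same order. In normal marrow the sums of both classes were lower in every niche library than in every general one. For the HIF targets this rests on Bnip3l: without it, in a sum taken after the values were seen, the other 6 were at 429.7, 392 and 434 CPM in the general and at 280.0, 516 and 504 CPM in the niche libraries of normal marrow, which overlap. In metastatic marrow the same 6 summed to 366 to 398 CPM in general and to 274 to 294 CPM in niche libraries, without overlap. Without Gpi1, also in a sum taken after the values were seen, the other 14 enzymes summed to between 1507 and 1720 CPM in the general and to between 1118 and 1500 CPM in the niche libraries of normal marrow. The mean log2(CPM + 1) of each class, in contrast, overlapped between populations in normal marrow. For the enzymes it was 6.04 to 6.45 in general and 5.08 to 6.28 in niche libraries. For the HIF targets it was 5.91 to 6.19 in general and 4.90 to 6.18 in niche libraries. On the scale of the mean log2(CPM + 1), the enzymes exceeded the HIF targets by 0.22 ± 0.19 in general macrophages from normal marrow, by 0.40 ± 0.63 in those from metastatic marrow and by 0.73 ± 0.57 in niche macrophages from metastatic marrow (SD, n = 3). For niche macrophages of normal marrow the difference was -0.10 ± 0.43 (SD, n = 3). These ranges overlap, except that all niche libraries from metastatic marrow, at 0.30 to 1.38, lay above those from normal marrow, at -0.60 to 0.18.

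**Figure D4:**
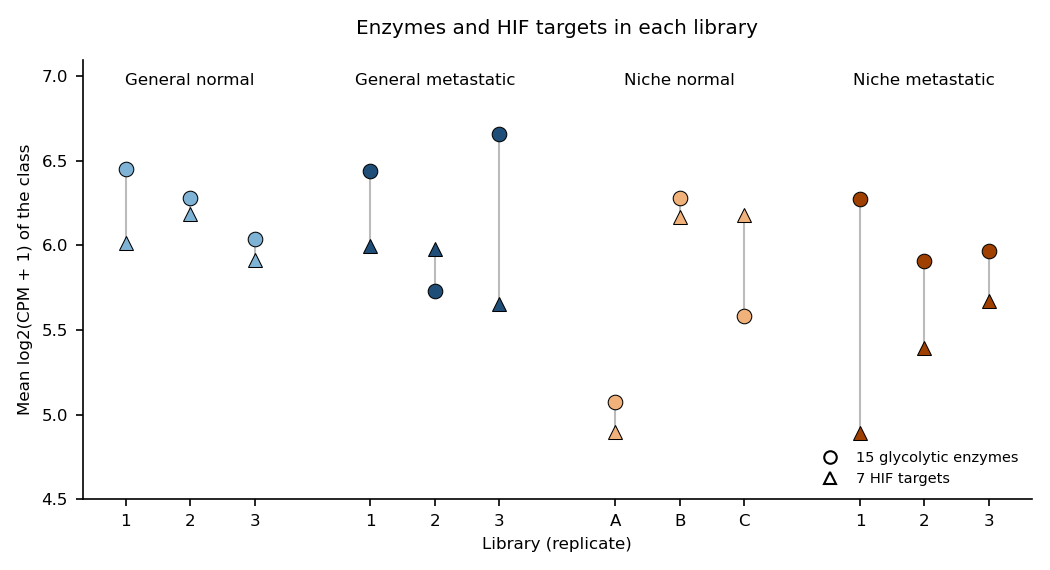
Mean log2(CPM + 1) of the 15 tested enzymes (circles) and the 7 tested HIF targets (triangles) in each of the 12 libraries, joined by a line within a library. In niche macrophages from metastatic marrow the enzymes lie above the targets in all 3 libraries, by 0.30 to 1.38, and in those from normal marrow the order differs between libraries.

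Within the pathway the enzymes differed in how evenly they were detected. In niche macrophages from normal marrow, 12 of the 36 tested genes (33.3%) had a highest library more than 10-fold above the lowest on the CPM + 1 scale, as did 41.5% of all tested genes. These 12 were Slc2a1, Hk1, Pfkl, Pfkp, Pfkm, Pgam1, Eno1, Slc16a3, Egln1, Egln2, Vhl and Bnip3. Pgam1, a phosphoglycerate mutase, was at 112, 142 and 1.36 CPM there and between 105 and 211 CPM in all 9 other libraries. Eno1, the main enolase, was at 36.6, 109.8 and 1.05 CPM there and between 51.4 and 145 CPM elsewhere. Of the 50-base stretches of Pgam1 41.5%, and of those of Eno1 49.5%, also occur in other genes. The part of this sharing in their values was not tested. Gpi1, Gapdh, Ldha, Aldoa, Slc2a3 and Bnip3l had a widest spread within a group of between 1.28-fold (Gpi1) and 2.24-fold (Gapdh). In general macrophages the number beyond 10-fold was 2 of 36 (5.56%) in each marrow, beside 23.7% of all tested genes in normal and 9.24% in metastatic marrow. In niche macrophages from metastatic marrow it was 4 of 36 (11.1%), beside 26.8% of all tested genes. Library A of the niche macrophages from normal marrow, which had the smallest total, had 9 of the 36 genes under 1 CPM, and 43.3% of all tested genes were under 1 CPM in it. The part of library depth in this was not tested.

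Groups whose libraries do not overlap were counted over the 36 genes as well. In normal marrow 9 of the 36 did not overlap between populations, Pdk1 and Slc16a1 as higher in niche macrophages and Slc2a3, Gpi1, Tpi1, Pfkfb4, Slc16a3, Arnt and Bnip3l as lower, beside 18.8% of all tested genes (10% higher and 8.78% lower). In metastatic marrow 5 of the 36 did not overlap, beside 17.2% of all genes (8.34% higher and 8.85% lower): Pdk1 and Hif1an as higher, and Gpi1, Pkm and Vhl as lower. Between metastatic and normal marrow it was 9 of the 36 in general macrophages, beside 12.9% of all genes (7.27% higher and 5.64% lower), and 4 in niche macrophages, beside 12.7% (5.63% higher and 7.11% lower). In general macrophages Slc2a1, Pfkm, Pfkfb3 and Pdk1 were higher and Slc2a3, Slc16a3, Arnt, Bnip3l and Ndrg1 lower with metastasis. In niche macrophages Gpi1, Egln3 and Bnip3l were higher and Ndrg1 lower.

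**Figure D5:**
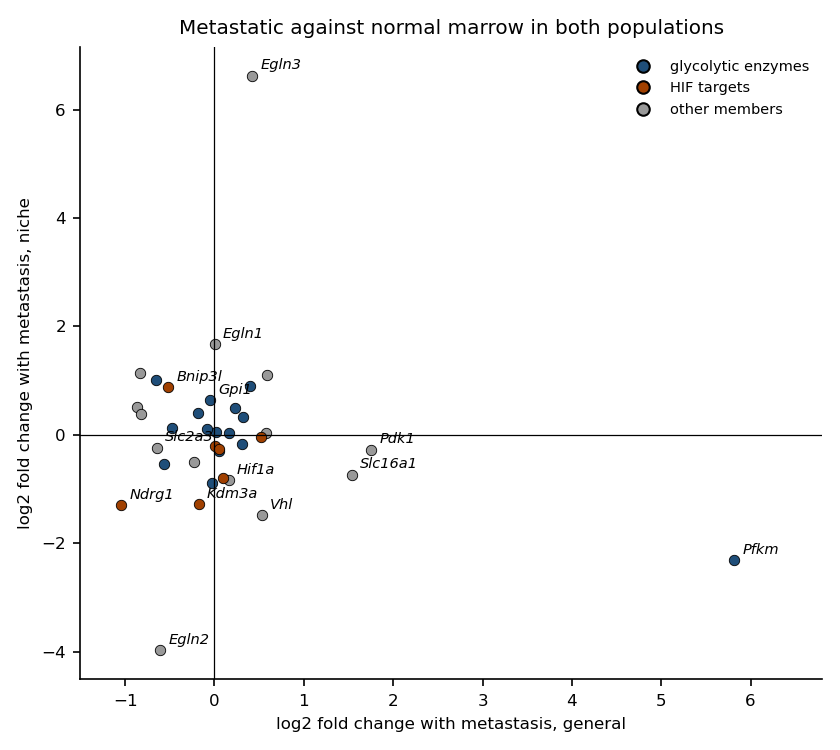
Log2 fold change of metastatic over normal marrow in niche macrophages (vertical) against general macrophages (horizontal) for the 36 tested genes, with enzymes, HIF targets and other roles in different colours. None of the points passed the test; Egln3 (6.63 in niche macrophages) and Pfkm (5.82 in general macrophages) lie far out and each rest on a normal marrow group with 1 to 2 counts per library.

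The wider pathway did not add many calls. Of 36 further genes of glucose and glycogen metabolism, 28 were in the table and 25 were tested, and none passed in edgeR's test in any comparison between groups. In normal marrow 13 of the 25 were above 0 and 12 below, with 7 at an unadjusted p under 0.05, as were 19.0% of all tested genes. The smallest p belonged to Pygl, a glycogen phosphorylase that releases glucose units from glycogen, which was at 416, 392 and 377 CPM in general and at 93.2, 206 and 245 CPM in niche macrophages of normal marrow, with a log2 fold change of -1.12 ± 0.31 (SE) and an adjusted p of 0.0632. The groups did not overlap in metastatic marrow either, where Pygl was at 331, 419 and 463 CPM in general and at 184, 177 and 213 CPM in niche macrophages, with an adjusted p of 0.18. Pgm1, a phosphoglucomutase, and Pfkfb2 followed in normal marrow, with log2 fold changes of -7.36 ± 2.40 and 3.20 ± 1.23 (SE) and adjusted p-values of 0.13 and 0.21. Pgm1 was at 12.8, 8.96 and 27.6 CPM in the general and at 0.0812, 0.0497 and 0.151 CPM in the niche libraries, which is 1 to 3 counts, so that its fitted value is not a bound. The 3 smallest p-values belonged to Pygl, Pfkfb2 and Bpgm between populations in metastatic marrow, to Pfkfb1, Adpgk and Slc2a8 with metastasis in general macrophages, and to Pgm1, Slc2a9 and Pdp1 with metastasis in niche macrophages.

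Of 36 further genes of the hypoxia response, 31 were in the table and 21 were tested, and 1 passed in edgeR's test, as higher in niche macrophages of normal marrow, where 1.50% of all tested genes did. This was Tfrc, the transferrin receptor, which brings iron into cells and is also abundant on developing red cells. Tfrc was at 36.5, 53.2 and 71.9 CPM in general and at 135, 129 and 229 CPM in niche macrophages of normal marrow, with a log2 fold change of 1.61 ± 0.41 (SE) and an adjusted p of 0.044. From metastatic marrow Tfrc was at 139, 197 and 75.7 CPM in general and at 364, 359 and 188 CPM in niche macrophages, which overlapped, with an adjusted p of 0.42. The erythroid marker sum was higher in the same niche libraries, with 4 of 15 markers passing, and its part was not tested. Bhlhe40, a transcriptional repressor, came next in normal marrow, with a log2 fold change of 1.87 ± 0.53 (SE) and an adjusted p of 0.0735. With metastasis, the smallest p of this list was that of Tfrc in general macrophages (1.35 ± 0.41, SE, adjusted p of 0.94) and that of Kdm4c, a histone demethylase, in niche macrophages (-1.96 ± 0.53, SE, adjusted p of 0.26).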

How the data were processed

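The authors deposited 1 table of expected counts, per the file header 18467 gene symbols by 12 libraries. Of its values, 73.9% were exactly whole numbers. The submitters' processing notes name STAR 2.7.3a, Partek, DESeq2 1.40.2, R 4.3.1 and mm10 without their roles; the annotation, counting program and strandedness are not given in the sources used here. After rounding, edgeR 4.0.16 (R 4.3.3) was applied to the expected counts (filterByExpr, TMM scaling, 4 group means over 12 libraries, quasi-likelihood F-tests, Benjamini-Hochberg adjustment over 12882 genes, called under 0.05). The common biological coefficient of variation was 1.3. Replicates are described as different mice, and whether both populations came from the same mice is not given. Library pairs within a group had chi-square statistics of at least 139 per degree of freedom, so none was a repeat. Exon lengths and coordinates come from GENCODE M21 (GRCm38), and promoters from RefSeq (GRCm38.p6).

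The members, the lists and the rule for genes described library by library (those called, those with an unadjusted p under 0.05, and role leads) were chosen with earlier results of these data known. Alternatives were RLE scaling, library totals, 2 filters, DESeq2 1.42.0, limma-voom (limma 3.58.1), removal of abundant gene classes, only the 6 libraries compared, a replicate block, and leaving out each library. The filter on low counts was applied anew in each fit that left out a library, so that between 13851 and 14250 genes were tested. The procedure was tested on simulated data. The level of 3 counts covers counting error only. Each SE is the absolute log2 fold change divided by the square root of the F statistic of its quasi-likelihood test. It thus carries the dispersion of the fit but is not a direct standard error of the coefficient. The SDs are over libraries.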

Additional observations from a re-analysis of the deposited data

How the results depend on the processing

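In normal marrow, 3 of the 36 genes passed between populations; DESeq2 passed 6 (Bnip3l, Egln3, Gpi1, Pfkm, Slc16a1 and Slc2a3) beside 14.2% of all genes, limma-voom 1 (Gpi1) beside 1.44%, and the fits that leave out 1 library between 1 and 3. The 1 remaining call, without replicate 3 of the general macrophages from normal marrow, was Bnip3l. DESeq2 passed 1 gene, Egln3, between metastatic and normal marrow in niche macrophages, beside 7.41%. Slc16a1 did not pass with limma-voom (adjusted p of 0.138) or with only the 6 libraries compared (0.109), Bnip3l did not pass with limma-voom (0.151), and Slc2a3 passed with DESeq2 (0.00881) and with a filter of 10 counts in every library (0.0289); the cause was not tested.

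Over all genes, the number called in normal marrow was 318, and 1825 with DESeq2, 186 with limma-voom, 163 with only the 6 libraries, and 176, 178 and 184 without replicates 1, 2 and 3 of the general macrophages. In metastatic marrow it was 107, and 480 with DESeq2, 178 with limma-voom and 66 without niche replicate 1; between metastatic and normal marrow DESeq2 called 141 genes in general and 954 in niche macrophages, limma-voom 23 and 11, in place of 2 and 1, and the other edgeR fits with all libraries 0 to 5 and 0 to 3. Without niche library B or C from normal marrow, 66 or 26 genes passed with metastasis in niche macrophages, and without B 16 passed for the interaction. DESeq2 called 410 genes for the interaction and limma-voom 0. Scaling by library totals moved the median of all genes by 0.25 between populations in metastatic marrow, with 96 calls higher and 20 lower in place of 74 and 33, and by 0.23 with metastasis in niche macrophages.

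Class medians moved as follows. Between populations in normal marrow, leaving out 1 library gave -0.55 to -0.24 for the enzymes and -0.17 to -0.054 for the HIF targets, the filter of 10 counts in every library gave -0.81 for the enzymes, and no filter gave 0.0066 for the HIF targets. The median of all genes there, 0.19, was 0 without niche library C, 0.035 with the filter of 10 counts, 0.048 with no filter and -0.20 with limma-voom. Between populations in metastatic marrow, library totals gave -0.024 for the enzymes and -0.041 for the HIF targets, beside that scaling's shift of 0.25 for all genes; leaving out 1 library gave -0.45 to 0.074 for the enzymes and -0.38 to -0.097 for the HIF targets. With metastasis in general macrophages, leaving out 1 library gave -0.23 to 0.16 for the enzymes and -0.20 to -0.093 for the HIF targets, and no filter gave -0.16 for the latter. With metastasis in niche macrophages, the filter of 10 counts in every library gave 0.55 for the 11 enzymes left, and leaving out 1 library gave -0.14 to 0.35 for the enzymes and -0.63 to -0.13 for the HIF targets.

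Same-numbered libraries did not deviate together, with correlations between -0.0036 and 0.033 over genes, so the numbers were not taken as pairs. A fit with the replicate number as a block was possible between populations in metastatic marrow and between marrows in general macrophages, and passed 0 of the 36 genes in each.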
